A study of Arabidopsis thaliana with 12 samples.

Results

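Salicylate-linked immune genes that were lower in warm seedlings were followed across 4 combinations of light and temperature. The set held 6 of the 22746 probe sets tested, 1 for each gene. The platform annotation gave the probe sets of AT5G03350 (legume lectin-like), AT2G43590 (chitinase family), AT5G55450 (lipid transfer family) and AT1G35710 (receptor kinase). The probe sets of LURP1 (AT2G14560) and WRKY54 (AT2G40750) were taken by their probe set identifiers, because the platform table used here leaves them unnamed. The genes were chosen because they were lower at 26 °C. Their temperature differences are therefore given as descriptions without a test, while the average effect of far-red light, which the choice did not use, was tested.

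RNA of aerial parts from wild-type (Columbia) Arabidopsis thaliana seedlings was hybridised to 12 one-colour arrays. Every plant was kept at 22 °C under constant white light for its first 9 days, spent the next 24 h in 1 of 4 conditions and was 10 days old at harvest. The conditions were 26 °C with far-red light added to white light (WFR 26 °C), 26 °C in white light (WL 26 °C), 22 °C with far-red light added (WFR 22 °C) and 22 °C in white light (WL 22 °C), with 3 arrays each. The labels call the 3 arrays biological replicates. They do not say whether the seedlings were grown apart or how many were pooled, so p-values measure only the spread between these samples.

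Salicylic acid is a plant immune hormone that is made after attack, mainly from isochorismate in the chloroplast. NPR proteins bind it and act with TGA transcription factors to switch on defence genes. WRKY transcription factors then extend or restrain that response. In Arabidopsis leaves, warm growth conditions are known to weaken salicylate production and the resistance that depends on it. No hormone was measured here, and the link of these 6 genes to salicylate is background knowledge that these arrays do not test.

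All values are log2 expression values as the authors deposited them, so that a difference of 1 is a doubling. They ran from 3.34 to 14.83 over all probe sets, and array medians lay between 6.91 and 7.01. Arrays of the same condition correlated at 0.99526 to 0.99786 across probe sets, which are not independent replicates. Arrays of different conditions correlated almost as highly, at 0.99328 to 0.99766. As a check of the tissue, the leaf genes LHCB4.1, a light-harvesting protein, and RCA, rubisco activase, lay between 13.89 and 14.13 and between 14.39 and 14.51 on the log2 scale. The root hair expansin genes EXPA7 and EXPA18 lay between 4.80 and 5.37 and between 4.78 and 5.65. These were 2 of 25 shoot and 2 of 13 root markers written, since the others are unnamed here, and 0 of the 4 passed limma for the average temperature effect, also at an unadjusted p under 0.05.

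LURP1 takes its name from its late rise after infection with the oomycete Hyaloperonospora and is needed for full basal defence against it. Its log2 values were 7.83, 8.02 and 8.31 at WFR 26 °C, against 10.25, 9.84 and 9.79 at WFR 22 °C. At WL 26 °C they were 8.26, 8.72 and 8.59, against 9.86, 8.69 and 9.98 at WL 22 °C. With far-red light the groups lay far apart, whereas in white light the second replicate at 22 °C sat inside the 26 °C range. The temperature difference was -1.91 ± 0.262 with far-red light (standard error, SE, of the fit), a 3.75-fold lower level. In white light it was -0.99 ± 0.262. That value was -0.38 when limma weighted the arrays, and leaving out single arrays gave -1.40 (without WL 22 °C replicate 2) to -0.75 (without WL 22 °C replicate 3). Averaged over both lights LURP1 was 2.73-fold lower at 26 °C, the largest fall among the 22746 probe sets. In bulk tissue, fewer cells of a type that makes this RNA and less RNA per cell cannot be told apart, which holds for every gene below.

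WRKY54 encodes a transcription factor that acts together with its relative WRKY70 in salicylate signalling and leaf senescence. Its log2 values were 6.01, 6.09 and 6.05 at WFR 26 °C, against 7.56, 7.14 and 7.14 at WFR 22 °C. They were 6.52, 6.61 and 6.70 at WL 26 °C, against 7.12, 6.71 and 6.69 at WL 22 °C. The temperature groups were clearly apart with far-red light, but in white light the highest 26 °C array slightly passed the lowest 22 °C array. The temperature difference was -1.23 ± 0.123 (SE) with far-red light and -0.23 ± 0.123 in white light, so the fall in white light was 18.6% of that with far-red light on the log2 scale. Without WL 22 °C replicate 1 the white-light difference was -0.09. The 3 arrays at WFR 26 °C lay within a narrow band, with a standard deviation (SD) of 0.0392, and were the lowest of all 12.

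AT5G03350 encodes a legume lectin-like protein, of a family that binds carbohydrates. Its log2 values were 9.09, 9.72 and 9.87 at WFR 26 °C, against 11.67, 10.74 and 10.56 at WFR 22 °C. They were 10.05, 10.49 and 10.79 at WL 26 °C, against 11.89, 10.82 and 10.98 at WL 22 °C. Within each light the temperatures did not overlap, although in white light the highest array at 26 °C came close to the lowest at 22 °C. The first replicate was well above the other two in both 22 °C groups. The temperature difference was -1.43 ± 0.314 (SE) with far-red light, or 2.70-fold lower. It was -0.79 ± 0.314 in white light, or 1.72-fold lower, with -0.45 without WL 22 °C replicate 1 and -0.52 with weighted arrays.

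AT2G43590 belongs to the chitinases, enzymes that cut the chitin of fungal cell walls. Its log2 values were 7.27, 6.17 and 6.18 at WFR 26 °C, against 7.79, 8.26 and 7.34 at WFR 22 °C. They were 7.32, 6.36 and 6.82 at WL 26 °C, against 7.75, 7.69 and 8.08 at WL 22 °C. All 6 arrays from 26 °C were below all 6 from 22 °C, but the gap was only 0.02, because the first replicate was high in both 26 °C groups. The temperature difference was -1.26 ± 0.296 (SE) with far-red light and -1.01 ± 0.296 in white light, which is 2.39-fold and 2.01-fold lower.

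AT5G55450 belongs to the lipid transfer family, small secreted proteins of which some carry defence signals. Its log2 values were 8.55, 8.27 and 8.21 at WFR 26 °C, against 9.46, 9.49 and 9.08 at WFR 22 °C. They were 8.22, 8.14 and 8.15 at WL 26 °C, against 9.26, 9.17 and 8.91 at WL 22 °C. Here too all 6 warm arrays lay below all 6 cool ones, with a gap of 0.36, wider than that of AT2G43590. The temperature difference was nearly the same in both lights, at -1.0 ± 0.119 (SE) with far-red light and -0.94 ± 0.119 in white light.

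AT1G35710 encodes a receptor kinase, a class of membrane proteins that sense molecules outside the cell. Its log2 values were 5.64, 5.79 and 5.51 at WFR 26 °C, against 6.69, 6.43 and 6.21 at WFR 22 °C. They were 5.83, 5.75 and 5.77 at WL 26 °C, against 6.24, 5.68 and 6.52 at WL 22 °C. The gene was apart between temperatures with far-red light and overlapped in white light, where the second 22 °C replicate was the lowest array of the 6. The temperature difference was -0.80 ± 0.167 (SE) with far-red light and -0.36 ± 0.167 in white light. The white-light value was -0.60 without WL 22 °C replicate 2 and -0.18 without WL 22 °C replicate 3, and -0.08 when limma weighted the arrays.

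**Figure D1:**
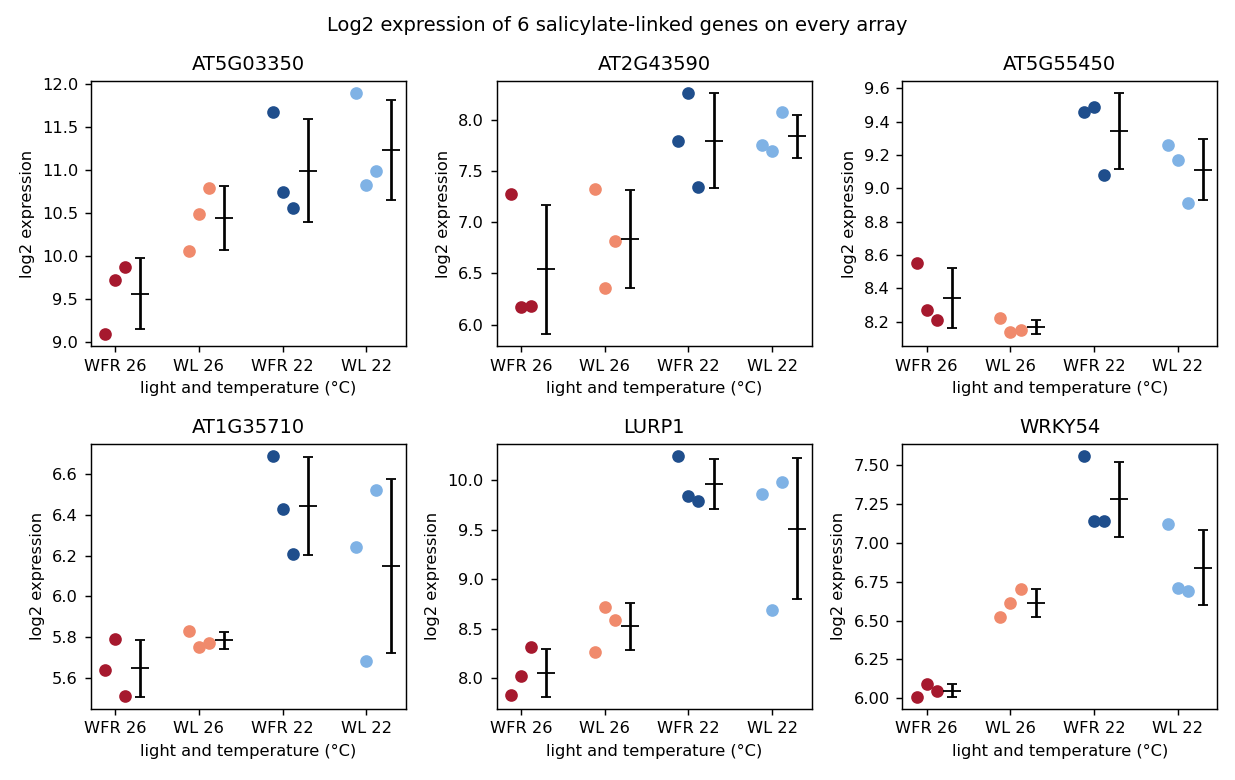
Log2 expression of the 6 genes on each of 12 arrays, by light and temperature, with the group mean and SD (n = 3) in black beside the points. The 26 °C groups are low in every panel, with no overlap across all arrays for AT2G43590 and AT5G55450, and LURP1 and AT1G35710 each have a low second replicate at WL 22 °C.

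Over the 6 genes the average temperature difference ran from -0.58 (AT1G35710) to -1.45 (LURP1), with a median of -1.04, against a median of -0.006 over all 22746 probe sets. Among the falls over all probe sets they held ranks 1 (LURP1), 3 (AT2G43590), 4 (AT5G03350), 5 (AT5G55450), 9 (WRKY54) and 27 (AT1G35710). Because the choice of genes used these contrasts, the values describe the selection.

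Overlap between the warm and cool arrays was counted as a further description. The genes were chosen for being lower in the warm, so these counts partly follow from that choice. The shares of all probe sets are given for scale and are not a test of the genes. With far-red light the 3 warm arrays were below the 3 cool arrays for 6 of 6 genes, as for 9.67% of all probe sets. In white light this held for AT5G03350, AT2G43590 and AT5G55450, as for 10.3% of all probe sets. All 6 warm arrays were below all 6 cool arrays for 2 genes, as for 1.36% of all probe sets.

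**Figure D2:**
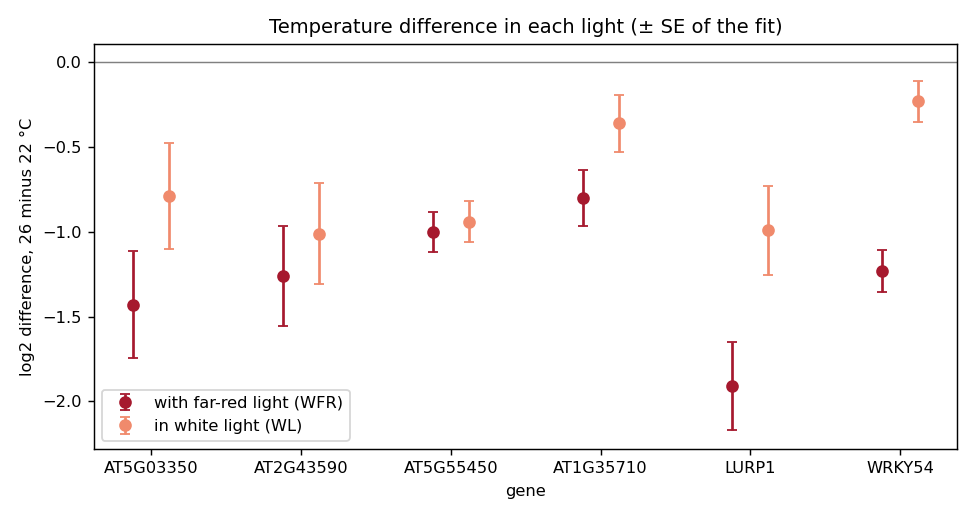
Log2 difference of 26 minus 22 °C for each gene, with far-red light (dark) and in white light (light), with bars of ± SE from the fit of all 12 arrays. All 12 differences are below 0, from -1.91 for LURP1 with far-red light to -0.23 for WRKY54 in white light, and the pair lies almost together for AT5G55450.

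The fall at 26 °C was larger with far-red light than in white light for each of the 6 genes, by 0.06 (AT5G55450), 0.25 (AT2G43590), 0.43 (AT1G35710), 0.65 (AT5G03350), 0.92 (LURP1) and 1.0 (WRKY54) on the log2 scale. The SE of these differences of differences was 0.169 for AT5G55450, 0.419 for AT2G43590, 0.236 for AT1G35710, 0.444 for AT5G03350, 0.370 for LURP1 and 0.174 for WRKY54. Differences in this direction were found for 47.0% of all probe sets and for 64.5% of the 563 (2.48%) that limma called lower in the average temperature effect at an adjusted p under 0.05. Limma called 0 of 22746 probe sets for this interaction, with 1254 (5.51%) at an unadjusted p under 0.05. Because some of the 6 were chosen for their fall with far-red light, their own interaction was not tested. The size depended on single arrays. With each array left out in turn, 26 minus 22 °C with far-red light less the same in white light ran from -1.14 to -0.86 for WRKY54, -1.16 to -0.51 for LURP1, -0.98 to -0.31 for AT5G03350, -0.62 to -0.20 for AT1G35710, -0.62 to -0.01 for AT2G43590 and -0.19 to 0.04 for AT5G55450. With weighted arrays it was -1.10 for WRKY54, -1.59 for LURP1, -1.06 for AT5G03350, -0.74 for AT1G35710, -0.05 for AT2G43590 and 0.01 for AT5G55450, so the sign for AT5G55450 was not stable.

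The order of the 4 group means differed between genes. LURP1, WRKY54 and AT1G35710 were highest at WFR 22 °C, followed by WL 22 °C and WL 26 °C, and lowest at WFR 26 °C. This order held for 4.98% of all probe sets and 23.4% of the 563 called lower. For AT5G03350 and AT2G43590 the 22 °C means lay close together and the lowest mean was again at WFR 26 °C. AT5G55450 was the only one of the 6 with its lowest mean at WL 26 °C. Neighbouring means that did not differ beyond their spread were the 22 °C groups for all but WRKY54, and the 26 °C groups for all but AT5G03350 and WRKY54, judged by overlap of the arrays. The neighbouring WL 22 °C and WL 26 °C groups also overlapped for LURP1, WRKY54 and AT1G35710. For AT5G03350 the neighbouring WFR 22 °C and WL 26 °C groups overlapped.

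Far-red light, averaged over both temperatures, gave no call for any of the 6 genes (limma, adjusted p of 0.257 to 0.990, n = 3 arrays per group), where 1.12% of all probe sets were called. AT5G03350 had the largest average far-red difference, -0.56 ± 0.222 (SE), with a 95% interval of -1.04 to -0.08 and a limma adjusted p of 0.257. AT5G55450 differed by 0.20 ± 0.0844, with an interval of 0.02 to 0.38 and a limma adjusted p of 0.289. These 2 had an unadjusted p under 0.05, and they differed in opposite directions. For LURP1 the average was -0.01, with an interval of -0.41 to 0.39. For WRKY54 it was -0.06, with an interval of -0.25 to 0.12. AT1G35710 had an interval of -0.18 to 0.33 and AT2G43590 of -0.62 to 0.28, so that for both a difference of either sign remained within the error.

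The averages near 0 for LURP1 and WRKY54 combined far-red differences of opposite sign. At 26 °C the far-red difference was -0.47 ± 0.262 (SE) for LURP1 and -0.56 ± 0.123 for WRKY54. At 22 °C it was 0.45 ± 0.262 for LURP1 and 0.44 ± 0.123 for WRKY54. AT1G35710 had a like pattern with smaller values, -0.14 at 26 °C and 0.29 at 22 °C, both ± 0.167. These differences share arrays with the temperature differences the genes were chosen on and were not tested. For WRKY54 the arrays of the lights did not overlap at either temperature, whereas for LURP1 and AT1G35710 they overlapped at both. At WL 22 °C the second replicate was low, at 8.69 for LURP1 (9.86 and 9.98 otherwise) and 5.68 for AT1G35710 (6.24 and 6.52). The far-red differences of these 2 genes at 22 °C lean on that array. Far-red arrays lay above white-light arrays at 22 °C for 9.16% of all probe sets, and they also lay below them at 26 °C for 37 (0.163%).

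For the lectin gene AT5G03350 the far-red difference was -0.88 ± 0.314 (SE) at 26 °C, where the light groups did not overlap, and -0.24 ± 0.314 at 22 °C, where they did. Warm far-red arrays lay below the warm white-light arrays without overlap for 5.17% of all probe sets. AT5G55450 was the only gene with positive far-red differences at both temperatures, 0.17 ± 0.119 at 26 °C and 0.23 ± 0.119 at 22 °C. AT2G43590 had -0.29 ± 0.296 at 26 °C and -0.04 ± 0.296 at 22 °C, both within their errors.

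**Figure D3:**
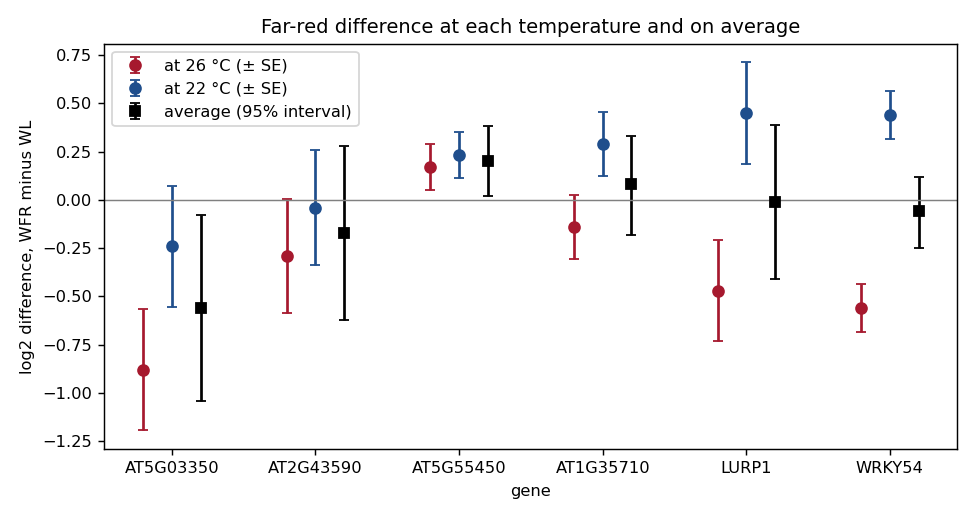
Log2 difference of WFR minus WL for each gene at 26 °C (red, ± SE), at 22 °C (blue, ± SE) and averaged over both temperatures (black, 95% interval). The differences for LURP1 and WRKY54 are negative at 26 °C and positive at 22 °C, and the average intervals of AT5G03350 and AT5G55450 exclude 0 before adjustment for the number of probe sets.

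Arrays of the same condition varied more for these genes than for most. The residual SD was 0.5 for AT5G03350, 0.472 for AT2G43590 and 0.415 for LURP1, which is above at least 99.4% of all probe sets. It was 0.255 for AT1G35710, 0.179 for WRKY54 and 0.172 for AT5G55450, the last above 90.5%. After subtracting group means, WFR 22 °C replicate 3 was below its group in all 6 genes and WL 22 °C replicate 2 in 5 of 6, with LURP1 lowest at -0.82. WFR 22 °C replicate 1 and WL 22 °C replicate 1 were above their groups in 5 of 6 genes. In the 26 °C groups each array was above its group mean for 2 or 3 of the 6 genes. What lies behind these array differences was not tested.

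Described by Pearson's r of these deviations over the 12 arrays, AT5G03350 and WRKY54 were the pair that varied most alike within conditions, at 0.92, followed by AT1G35710 and LURP1 at 0.76. The chitinase gene AT2G43590 went with AT5G55450, at 0.59, and against AT5G03350, at -0.38. The median over the 15 pairs was 0.36. The deviations of a group sum to 0, and all genes share the same 12 arrays and their scaling.

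**Figure D4:**
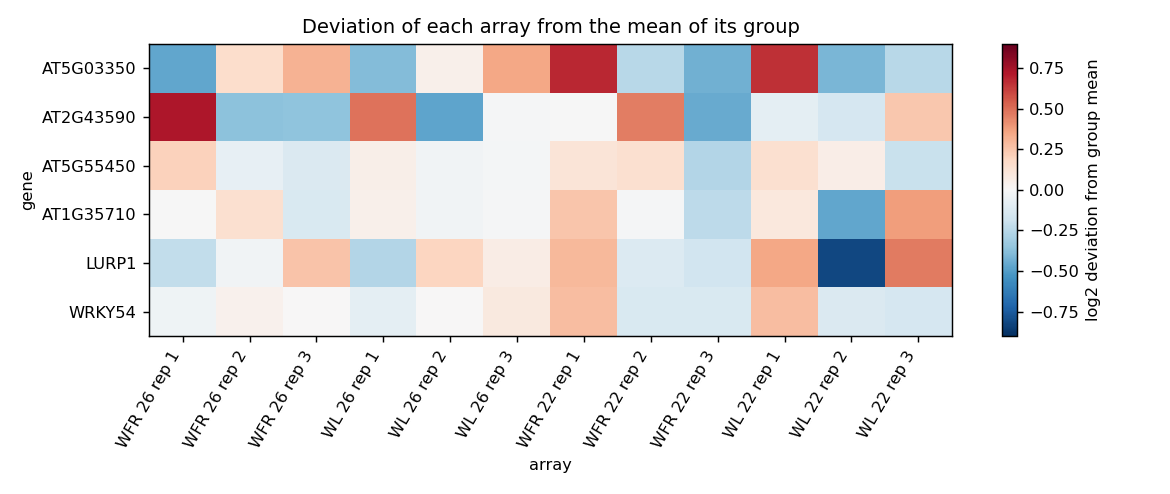
Deviation of the log2 value of each gene (rows) on each array (columns) from the mean of its group of 3 arrays, red above and blue below. WL 22 °C replicate 2 has LURP1 at -0.82, WFR 22 °C replicate 3 is below its group in every row, and AT2G43590 is high in the first replicate of both 26 °C groups.

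Of other genes in salicylate signalling and in the families of the 6, 171 were written in 11 lists and 43 of them, in 9 lists, have a named probe set. None of the 16 salicylate-induced targets written, such as PR1, and none of the 23 intracellular immune receptors has one here. By limma, 0 of the 43 were called lower in the average temperature effect and 1 higher, with 1 lower and 3 higher at an unadjusted p under 0.05. Over the 13282 genes with a named probe set outside the 6, 2.08% were called lower and 2.51% higher, and 9.0% and 8.52% at an unadjusted p under 0.05. The 43 had a median of -0.01 and ran from -0.37 to 0.39. The 6 genes lay below them at -0.58 to -1.45, which follows from their choice by this fall. Limma called 0 of the 43 in white light and with far-red light, where 0.158% and 0.541% of all probe sets were called lower, and 0 for the average far-red effect. At an unadjusted p under 0.05 1 of them was higher and 0 lower in white light, while 2 differed each way with far-red light. For the average far-red effect 6 of the 43 were lower and 2 higher at that level. This leaning was not tested and was the reverse of that over the 13282 genes (4.85% lower and 8.97% higher). In white light 6.13% of those genes were lower and 5.43% higher, and with far-red light 6.4% and 6.33%.

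Among genes of salicylate and pipecolate metabolism, BSMT1, which methylates salicylate and benzoate, was the 1 called. Its log2 mean was 4.49 ± 0.0389 at WFR 26 °C and 4.64 ± 0.199 at WL 26 °C, against 4.25 ± 0.0419 at WFR 22 °C and 4.28 ± 0.0663 at WL 22 °C (SD, n = 3 each). It rose by 0.30 ± 0.0613 (SE; limma adjusted p = 0.0134), but fell below both filters on dim probe sets. Of the other 3 measured in this joint list, AT5G52810 (SARD4) differed by -0.14 and UGT74F1, a salicylate glucosyltransferase, by -0.04.

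The measured regulators of salicylate synthesis, AT3G48080 and SAG101, differed by at most 0.06 in size between temperatures on average. SAG101, a partner of EDS1 in immune signalling, had log2 means of 5.69 at WFR 26 °C and 5.48 at WL 26 °C, against 5.58 at WFR 22 °C and 5.59 at WL 22 °C. Of NPR, NIMIN and TGA genes, AT4G26120 differed by -0.03 and the glutaredoxin gene GRX480 by 0.02. WRKY53 and WRKY22, which are other defence WRKY genes, differed by -0.06 and 0.04. Of 4 cell-surface receptor genes measured, AT4G08850 differed by -0.12 and AT1G61380 by 0.07. Limma called 0 of these 10 genes, where 2.08% of the 13282 genes were called lower and 2.51% higher. An unadjusted p under 0.05 was found for 0 of them. The log2 means of the 10 over all arrays ran from 3.84 (AT3G48080) to 8.76 (AT4G08850), and in the dim ones a fall would be hard to see.

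The relatives of the 6 genes by family had median differences of 0.05 (chitinases), -0.01 (legume lectins), 0.05 (small lipid transfer genes) and -0.04 (LURP-one related genes). With 2.08% of the 13282 genes called lower and 2.51% higher, 0 calls in lists this small says little about the families. The log2 means of the relatives over all arrays ran from 4.12 (AT1G07460) to 11.38 (AT5G48490). In the dim ones a fall would be hard to see. Of 10 other chitinase genes limma called 0 (1 lower at an unadjusted p under 0.05), with a median of 0.05. ChiC, a class V chitinase, differed by -0.34 (limma adjusted p = 0.124) and AT2G43620 by 0.31 ± 0.404 (SE; limma adjusted p = 0.761). Of 5 other legume lectin genes 0 were called (1 higher at an unadjusted p under 0.05). Among these, AT3G16530 differed by -0.37 ± 0.291 (SE; limma adjusted p = 0.558) and AT1G53060 by 0.23. Of 6 small lipid transfer genes 0 were called by limma (1 higher at an unadjusted p under 0.05), with AT4G33550 at 0.39 and AT1G48750 at 0.25. Of 8 LURP-one related genes 0 were called, also at an unadjusted p under 0.05, with AT2G30270 at -0.14 and AT3G15810 at 0.10. In these families 1 chitinase gene was called without WL 26 °C replicate 3, and 1 lipid transfer gene without WL 22 °C replicate 1.

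**Figure D5:**
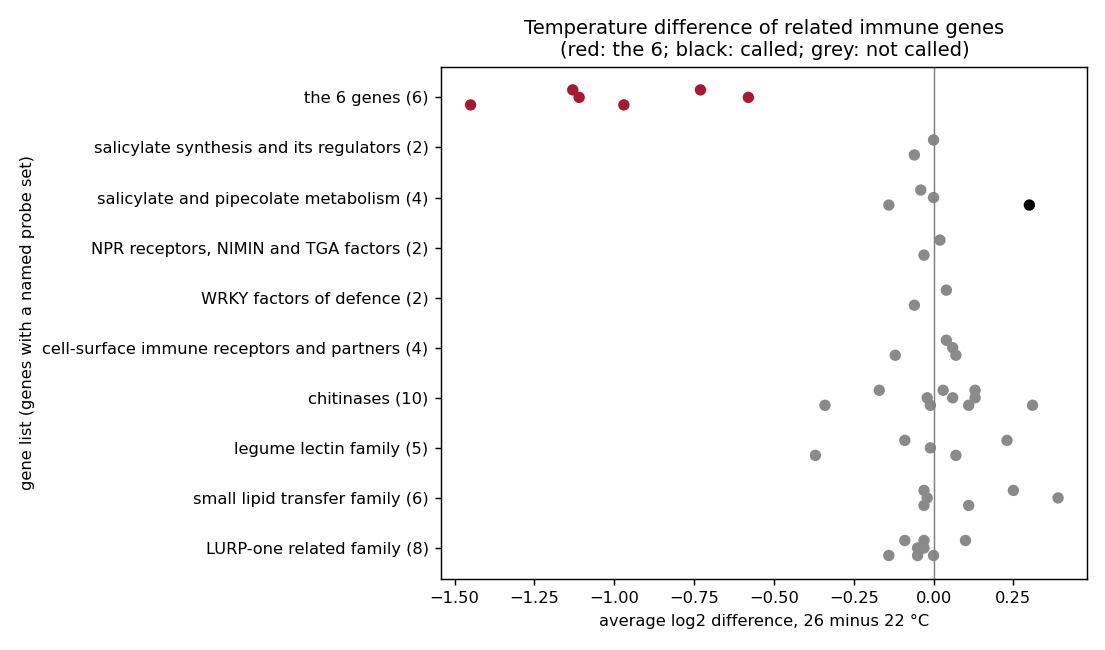
Average log2 difference of 26 minus 22 °C for the 6 genes (red) and for 43 listed genes with a named probe set in 9 lists (black where called by limma, grey where not). The 6 genes, which were chosen for this fall, lie between -1.45 and -0.58. The 43 lie between -0.37 and 0.39, and BSMT1 at 0.30 is the 1 listed gene called.

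Jasmonate often acts against salicylate, and old leaves also turn on salicylate-linked genes, so both were listed as well. Of 3 measured jasmonate genes limma called 0 (2 higher at an unadjusted p under 0.05). The thionin gene THI2.1 differed by 1.03 ± 0.375 (SE; limma adjusted p = 0.137) and JMT, which methylates jasmonate, by 0.22. PDF1.2 went the other way, at -0.19 ± 0.557 (SE). The arrays of THI2.1 at WL 26 °C lay far apart, at 5.57, 4.89 and 7.48. Of 2 senescence genes limma called 0 (1 higher at an unadjusted p under 0.05), with the sugar transporter gene SAG29 at 0.36 ± 0.105 (SE; limma adjusted p = 0.0627) and WRKY6 at 0.11. Of these 2, 1 was called without WL 26 °C replicate 1 and under 3 other settings, array weights among them. SAG29 had log2 means of 8.79 at WFR 26 °C and 8.66 at WL 26 °C, against 8.35 at WFR 22 °C and 8.39 at WL 22 °C. Whether these markers have a part in the values of the 6 genes was not tested.

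Neighbouring genes were taken from the RefSeq order of protein-coding genes, 5 on each side of each of the 6. Of 60 such neighbours, 27 have a named probe set, and limma called 1 lower and 0 higher in the average temperature effect. Over the 13282 genes outside the 6, 2.08% were called lower and 2.51% higher, so 1 call is near that share. AT2G43590 lies among other chitinase genes, of which 5 neighbours were measured. CHI, AT2G43580, AT2G43600, AT2G43610 and AT2G43620 differed by 0.13, 0.11, 0.03, -0.02 and 0.31, against -1.13 for AT2G43590. In the same order their log2 means over all arrays were 4.91, 4.34, 4.94, 5.65 and 8.71, against 7.25 for AT2G43590. The brightest, AT2G43620, varied widely, with arrays from 6.75 to 9.71 and an SE of 0.404, so the sign of its difference is uncertain. In the dim ones a fall would be hard to see. Beside AT5G03350, the measured neighbours AT5G03345 and AT5G03360 differed by 0.05 and -0.07, against -1.11 for AT5G03350. AT5G03360 was dim, with log2 group means of 4.35 to 4.56. The neighbour called was AT2G40780, the fifth gene after WRKY54, which fell by 0.25 ± 0.0607 (SE; limma adjusted p = 0.0270), against -0.73 for WRKY54.

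The mean of the standardised values of the 6 genes over the 12 arrays was set against 13509 other probe sets with a single gene by Pearson's r. The most alike were AT2G36835 at 0.919, AT3G23700 at 0.907 and AT2G42770 at 0.906, followed by AT2G25510, AT2G41090, AT4G20760, AT5G42070 and AT5G58950 at 0.898 to 0.886. AT2G36835 had log2 means of 10.34 at WFR 26 °C and 10.39 at WL 26 °C, against 10.81 at WFR 22 °C and 10.76 at WL 22 °C. Its average temperature difference was -0.42 ± 0.0498 (SE). AT2G41090 had the largest average difference of the 8, -0.46, and the others ran from -0.42 to -0.13. The likeness is therefore one of shape, with average changes smaller than those of any of the 6 genes. In white light alone, AT2G36835 at -0.37 and AT2G25510 at -0.27 fell more than WRKY54 at -0.23. The fall of AT2G36835 there was also slightly beyond that of AT1G35710 at -0.36.

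By deviations from group means alone, other genes were most alike, namely AT3G58730 at 0.932, AT4G37190 at 0.903, PSBY, a small photosystem II protein, at 0.901, AT5G39020, AT1G04790, the glutathione transferase gene GSTU18, CCB3 and AT3G17410 at 0.899 to 0.888. The average temperature differences of these 8 ran from -0.11 to 0.12. None of the 8 is among the 8 alike over all arrays.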

How the data were processed

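Each array has 1 deposited value for every probe set, on a log2 scale normalised by the authors. The tools listed, per the submitters' processing notes, are affy, MAS5 and RMA, with no version. The sources used here do not say which of them produced the log2 values. Of 22810 probe sets, 64 controls were left out. The platform annotation, updated through RefSeq (TAIR10.1, for names and gene order), gave a single gene for 13513 probe sets, several for 503 and none for 8730.

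One mean per condition was fitted over the 12 arrays (limma 3.58.1, R 4.3.3), with 8 residual and 5.99 prior degrees of freedom. P-values were two-sided, adjusted by Benjamini and Hochberg's method across the 22746 probe sets, and called under 0.05. The average far-red effect is orthogonal to every temperature contrast. The fit was tested on simulated data. Each listed gene had 1 probe set. The genes and lists were chosen with earlier results of these data known. Up to 4 called genes per list were named, with up to 2 others of the largest change. Neighbouring genes were added after seeing the data. Alternatives were 4 scalings, 2 filters on dim probe sets, an intensity trend, array weights, a replicate block, fits of 2 groups and leaving out each array. Promoter motifs, which were planned, were not analysed here.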

Additional observations from a re-analysis of the deposited data

Results flagged for a closer look

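WRKY54 was picked out because far-red light went with lower values on every array at 26 °C and with higher values on every array at 22 °C. The log2 difference of WFR 26 °C minus WL 26 °C was -0.56, and that of WFR 22 °C minus WL 22 °C was 0.44. The difference between these was not tested for WRKY54, since the gene was chosen by its temperature response. Over all probe sets limma called 0 for the interaction, with 1254 at an unadjusted p under 0.05. Groups of 3 arrays are too small for the check on single outlying samples.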

How the results depend on the processing

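The average temperature difference of each of the 6 genes moved by less than the spread between replicates under every alternative run. Leaving out each array in turn gave -1.65 to -1.33 for LURP1, -1.31 to -1.01 for AT2G43590, -1.22 to -0.94 for AT5G03350, -1.03 to -0.93 for AT5G55450, -0.77 to -0.66 for WRKY54 and -0.70 to -0.49 for AT1G35710. AT1G35710 and WRKY54 fell below the filter on the dimmest 50% and have no value there. The average far-red effect of the 6 genes stayed uncalled under every alternative. Its sign turned with array weights for AT2G43590 (0.07) and LURP1 (0.19), and with arrays left out it ran from -0.21 to 0.11 for LURP1, -0.04 to 0.17 for AT1G35710 and -0.13 to 0.01 for WRKY54. In white light, array weights gave -0.08 for AT1G35710 and -0.38 for LURP1. The cause was not tested.

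Counts of calls over all probe sets moved more. Array weights gave 835 for the average far-red effect (255 otherwise), 2247 for the average temperature effect (1227), 1614 for the temperature effect in white light (139) and 2 for the interaction of far-red light and temperature (0). For the temperature effect in white light and the temperature effect in far-red-supplemented light (250), an intensity trend gave 217 and 429, leaving out the dimmest 50% gave 220 and 422, and fits of the 2 groups alone gave 57 and 147. Leaving out each array gave 98 to 253, 655 to 1357, 44 to 152, 40 to 379 (40 without WFR 26 °C replicate 2) and 0 calls, for the average far-red, average temperature, white-light, far-red-light and interaction comparisons. Subtracting array medians changed the split of the far-red calls to 106 higher and 150 lower, against 188 and 67, and of the white-light calls to 76 and 47, against 103 and 36. With this scaling, every average far-red difference shifted by -0.0464. The replicate numbers did not pair the arrays: deviations of same-numbered arrays correlated at -0.259 to 0.12, and 2 of 12 arrays were closest to an array of their own number. With a replicate block the calls were 172, 933, 88, 138 and 0 in the same order of comparisons. Among listed genes BSMT1 stayed called in the average temperature effect wherever it was tested (adjusted p up to 0.0378; the dim filters removed it), and was called in white light with array weights (0.41) and without WL 26 °C replicate 1 (0.46). Other lists with 0 calls gained 1 in the average temperature effect: senescence without the dimmest 50%, with an intensity trend, with array weights and without WL 26 °C replicate 1, chitinases without WL 26 °C replicate 3, and small lipid transfer genes without WL 22 °C replicate 1. For the average far-red effect, legume lectins gained 1 without the dimmest 50% and without WFR 22 °C replicate 2, and small lipid transfer genes 1 with array weights. Using the mean over all probe sets of a gene changes nothing for listed genes, which have 1 each. The number of arrays limits the precision.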
